A study of Mus musculus with 20 samples.

Results

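The insulin-like growth factor (IGF) genes described here are the ligands Igf1 and Igf2, the signalling receptor Igf1r and the 6 binding proteins Igfbp2 to Igfbp7. They were taken by gene symbol from a table of 54532 genes, and all 9 were found. The samples are cultures of articular chondrocytes, the cells of joint cartilage, from 6-week-old mice. The study compared 4 treatments of 48 hours, with 5 libraries each and 20 in all: DMSO (the Vehicle group), 25-hydroxycholesterol (25HC) at 20 µM, its 3-sulfate (25HC3S), also at 20 µM, and GW3965 at 2 µM. Strain, sex and genotype are not stated in the labels. The labels also do not say that replicates were separate animals or cultures, so a p-value is set by library-to-library spread alone, and that spread may be technical. 25HC is an oxidised cholesterol, 25HC3S carries a sulfate on the hydroxyl group at position 3 of the same sterol, and GW3965 is a drug-like ligand that activates the liver X receptors (LXR), which oxysterols also bind.

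IGF-1 and IGF-2 are secreted growth factors that bind the IGF-1 receptor, a tyrosine kinase that signals through the IRS adaptors to PI3 kinase and AKT. In cartilage, IGF-1 is known as an anabolic factor that raises proteoglycan and collagen synthesis. The binding proteins hold the ligands outside the cell; they can withhold them from the receptor or carry them to it, and proteases such as pappalysin release the ligand by cutting them. Igfbp7 is a distant relative that binds IGFs only weakly.

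Members are placed as the deposited table gives them, with coordinates that match GENCODE release M21 on build GRCm38 for all 9. Igf1 lies at chr10:87858265-87937042 on the plus strand, Igf2 at chr7:142650766-142666816 on the minus strand, and Igf1r at chr7:67952827-68233668 on the plus strand. Igfbp2 (chr1:72824503-72852474, plus) and Igfbp5 (chr1:72857932-72874884, minus) face each other, with their 3′ ends 5458 bases apart. Igfbp3 lies at chr11:7206086-7213923 (minus), Igfbp4 at chr11:99041244-99054392 (plus), Igfbp6 at chr15:102144362-102149511 (plus) and Igfbp7 at chr5:77349240-77408041 (minus). All are protein-coding genes, and the table gives 1 value per gene. Igf1, Igf2 and Igfbp7 overlap other annotated genes (Igf1os for Igf1; Igf2os, Gm49394 and Mir483 for Igf2; Polr2b and Gm34648 for Igfbp7), and since the strand setting of the counting is not given, fragments of opposite-strand partners cannot be told apart.

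The 250 bases before the RefSeq start of Igfbp3 and Igfbp5 are shown because these are the members whose level passed the test in a comparison of all 20 libraries. They are RefSeq sequence of build GRCm38.p6, read 5′ to 3′ on the strand of the gene, at chr11:7213924-7214173 (minus) and chr1:72874866-72875115 (minus). Capitals mark TATNTA, a variant of the TATA box that was added to the search after these windows had been read.
Igfbp3: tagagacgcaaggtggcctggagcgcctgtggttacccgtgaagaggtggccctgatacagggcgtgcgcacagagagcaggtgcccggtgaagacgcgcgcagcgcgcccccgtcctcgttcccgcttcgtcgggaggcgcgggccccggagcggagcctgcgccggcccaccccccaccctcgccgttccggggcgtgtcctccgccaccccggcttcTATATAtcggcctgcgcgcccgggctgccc
Igfbp5: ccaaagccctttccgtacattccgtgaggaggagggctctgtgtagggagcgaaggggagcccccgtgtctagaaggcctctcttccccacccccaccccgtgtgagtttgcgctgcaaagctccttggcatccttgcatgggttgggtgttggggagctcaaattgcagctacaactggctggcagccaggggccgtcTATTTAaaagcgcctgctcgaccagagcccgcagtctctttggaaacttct
The variant began 30 bases before the start in Igfbp3 and 51 bases before it in Igfbp5. All distances here are to RefSeq starts, which can differ from the coordinates given above. The Igfbp5 window, from 72874866, reaches into the gene as placed above, which ends at 72874884. The variant thus lies nearer to that start. Windows of Igf1, Igf1r, Igfbp2, Igfbp6 and Igfbp7 do not adjoin the starts given above either. Of 32851 RefSeq windows of the same length, 25.1% hold TATNTA on either strand, and 2.16% hold it on the strand of the gene beginning 40 to 20 bases before the start. Neither window held AGGTCA (the half-site of LXR and other nuclear receptors, in 14% of all windows), the DR4 element of LXR (a second AGGTCA 4 bases after the first, 0.0152%), the sterol regulatory element TCACCCCAC (0.496%), the GC box GGGCGG (32.7%) or the TATA box TATAAA (12.4%), searched on both strands. Each DR4 match also counts as a half-site. Among the other members Igfbp4 had TATAAA 28 bases before its start on its own strand, and GGGCGG occurred 4 times for Igfbp7, 3 times in 1 of the windows of Igfbp2 and 2 times for Igf1r. TATNTA was not particular to the printed windows: Igfbp6 had it on its own strand 35 bases before its start, with TATAAA on the opposite strand at 148, and Igf1 had it on the opposite strand at 11. GGGCGG occurred 1 and 2 times in separate windows of Igf2. AGGTCA occurred once each in windows of Igf1, Igf1r and Igf2. These are matches of letters in short windows, not sites.

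The libraries held 14653777 to 19365220 fragments in genes. Of these libraries, 4 stood apart from the other 16 on measures that do not use the IGF genes: Vehicle replicates 2, 3 and 4 and 25HC3S replicate 1 had 237 to 1171 genes with exactly 1 fragment and 16346 to 19648 genes detected, against 1808 to 2057 and 20847 to 21607 in the 16 others. Mitochondrial genes took 4.07% and 3.60% of fragments in Vehicle replicates 3 and 4 and 3.14% in 25HC3S replicate 1, but 0.369% in Vehicle replicate 2 and 0.888% to 1.41% in the others. Since the Vehicle group holds 3 of the 4, the differences of the members are given with all libraries and without these 4, which leaves 2 Vehicle and 4 25HC3S libraries. All 10 chondrocyte markers reached 1 FPKM (fragments divided by gene length and library depth), and their summed level was 1796 to 5167 FPKM. All 10 macrophage markers also reached 1 FPKM, with sums of 355 to 1044 FPKM. Of 8 markers of synovial lining, tendon and fibroblasts 7 reached 1 FPKM, and of 5 bone-cell markers 3 did. Prg4, made by synovial lining and surface chondrocytes, was highest in the first list at 82.4 to 187 FPKM. Ibsp, a gene of bone-forming cells and hypertrophic chondrocytes, was highest in the second at 61.7 to 99.1 FPKM. Pi16 had at most 0.0769 FPKM and Dmp1 at most 0.185, and Sost was at 0 in 16 of the 20 libraries. Since chondrocytes also make Prg4 and Ibsp, these genes alone do not show that other joint cells were present. In the same lists Thy1 had 13.8 to 37.2 FPKM, Pdgfra 12.6 to 18.8, Scx 5.79 to 15.6 and Sp7 8.36 to 16.7. Dpt had 1.01 to 7.07 FPKM and Cd34 1.92 to 3.32, and Tnmd and Bglap were each at 0 in 1 library. Which cells these transcripts came from was not tested. Of 5 adipocyte markers Lep was at 0 in all 20 libraries, while Adipoq had 4.28 to 15.2 FPKM and Cfd 4.22 to 30.4 FPKM. Endothelial markers summed to at most 6.07 FPKM. In bulk RNA, fewer cells of a type and less RNA per cell cannot be told apart.

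The binding proteins were far more abundant than the ligands. In the 16 libraries Igfbp7 had the highest mean level, 291 ± 12.7 FPKM (SD), followed by Igfbp4 at 287 ± 19.3 FPKM. The ranges of these genes overlapped, so their order is not resolved. Igfbp2 (116 ± 19.0 FPKM) and Igfbp6 (103 ± 8.2 FPKM) came next and also overlapped each other, but lay below the first pair in every one of the 16 libraries. Igfbp5, which binds to matrix and hydroxyapatite, stood alone at 40.9 ± 8.43 FPKM. Igf1r (7.04 ± 0.413 FPKM) and Igf1 (6.76 ± 0.71 FPKM) overlapped each other, and their ranges lay above that of Igfbp3 (3.72 ± 1.17 FPKM), the main carrier of IGFs in serum. Igf2, the fetal ligand, came last at 0.229 ± 0.0691 FPKM.

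Summed over the 6 binding proteins the level was 842 ± 48.5 FPKM in the 16 libraries, 126 ± 14.7 times that of Igf1 in the same library. Igfbp4 and Igfbp7 together made 68.8% ± 1.90 of that sum. The order of the members was the same in the 25HC and GW3965 groups apart from exchanges between Igfbp7 and Igfbp4 and between Igf1 and Igf1r, whose ranges overlapped in both groups. These levels are of RNA, compared per length of gene, and say nothing of secreted protein.

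**Figure D1:**
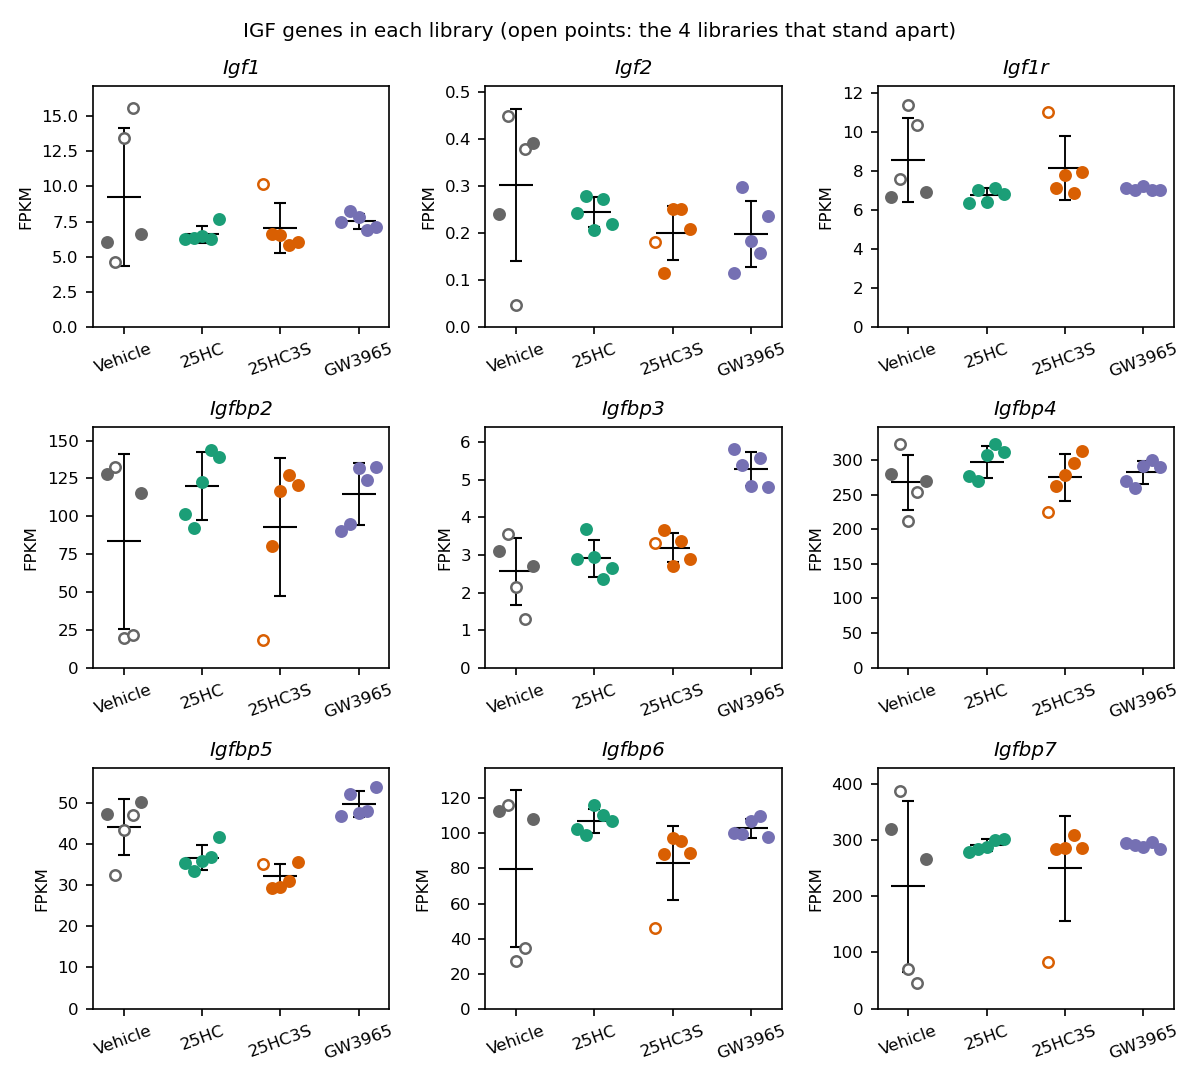
Level of each IGF gene in FPKM (vertical axis, from 0) in the 5 libraries of each group (horizontal axis), one point per library in the order of the replicate numbers, with the group mean (horizontal bar) and SD (vertical line); open points are the 4 libraries that stand apart. The 5 GW3965 points of Igfbp3 (4.81 to 5.82) lie above all 15 others, and open points of Igfbp2, Igfbp6 and Igfbp7 fall far below the filled ones. The share of all genes whose GW3965 points lie apart from all other groups was not computed.

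Differences between groups were tested with limma on log2(FPKM + 1), fitted over the 12752 genes that reached 1 FPKM in 5 or more libraries, and a gene was called at a Benjamini-Hochberg adjusted p under 0.05. This filter on low values was passed by 8 members, and not by Igf2. Of the 8, 1 was called in GW3965 against Vehicle (Igfbp3, higher), 1 in 25HC3S against Vehicle (Igfbp5, lower), and none in 25HC against Vehicle or 25HC3S against 25HC. Over all tested genes 6.46%, 1.61%, 0.0392% and 0.816% were called in these 4 comparisons, in the same order. By limma at an unadjusted p under 0.05, 1, 1, 2 and 0 of the 8 members passed in that order, beside 31.9%, 17.1%, 30.3% and 7.12% of all tested genes.

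Igfbp3 rose with GW3965. Its level was 3.12, 3.57, 2.14, 1.28 and 2.71 FPKM in Vehicle replicates 1 to 5, and 5.82, 5.39, 4.82, 5.58 and 4.81 FPKM in the GW3965 replicates. Every GW3965 library lay above every Vehicle library, a separation shown upward by 3.79% of all tested genes, while 3.49% were called higher. Means were 2.56 ± 0.888 and 5.29 ± 0.452 FPKM (SD, n = 5), a ratio of 2.06. The difference of log2(FPKM + 1) was 0.86 ± 0.14 (SE; 95% interval 0.56 to 1.15; limma adjusted p = 0.00085). Leaving out the 4 libraries gave 0.68 ± 0.11 (limma adjusted p = 0.0011; 4.07% of tested genes called higher), and the call was kept in each of the 20 fits that left out 1 library (0.71 to 0.96). These levels rest on 63 to 185 fragments per Vehicle library and 247 to 332 per GW3965 library. The summed level of 5 markers of dividing cells moved with this result, at 39.9 to 45.2 FPKM in GW3965 and 62.9 to 102 in Vehicle, and none of the 5 was at 0 in any library; their part in the result was not tested.

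Under the sterols Igfbp3 stayed within the range seen for Vehicle or just above it. It measured 2.88, 3.69, 2.96, 2.35 and 2.66 FPKM in the 25HC replicates and 3.32, 3.67, 2.72, 3.37 and 2.90 FPKM in the 25HC3S replicates. Both sets overlap Vehicle, and all 10 values lie below the lowest GW3965 library. How many of all genes lie apart from GW3965 in this way was not computed. Against Vehicle the log2 difference was 0.16 ± 0.14 for 25HC (interval -0.13 to 0.46, limma adjusted p = 0.40) and 0.27 ± 0.14 for 25HC3S (interval -0.025 to 0.57, limma adjusted p = 0.33). These became -0.0085 ± 0.11 and 0.086 ± 0.12 when the 4 libraries were left out, again not called. GW3965 was given at 2 µM and the sterols at 20 µM, so their responses are set side by side and not tested against each other.

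Igfbp5 fell with 25HC3S. Vehicle replicates 1 to 5 had 47.3, 32.6, 43.5, 47.1 and 50.2 FPKM, and 25HC3S replicates had 35.2, 29.3, 29.6, 30.9 and 35.6 FPKM. The groups overlap through 1 library, Vehicle replicate 2 at 32.6 FPKM, which is among the 4 that stand apart. Means were 44.1 ± 6.88 and 32.1 ± 3.06 FPKM (SD, n = 5). The log2 difference was -0.44 ± 0.10 (interval -0.64 to -0.23; limma adjusted p = 0.030), where 1.14% of all tested genes were called lower. In the 16 libraries the groups did not overlap, as for 12.6% of tested genes in that direction, and the difference was -0.63 ± 0.08 (limma adjusted p = 0.00060). With all libraries the call was lost on leaving out Vehicle replicate 3 or 4 or 25HC3S replicate 2, 3 or 4, where the adjusted p reached 0.0966, and in a fit of only these groups (limma adjusted p = 0.48).

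With 25HC, Igfbp5 measured 35.4, 33.5, 36.0, 36.9 and 41.7 FPKM. All these values lie below those of Vehicle other than replicate 2. The log2 difference from Vehicle was -0.25 ± 0.10 (interval -0.45 to -0.041) and did not pass (limma adjusted p = 0.15). In the 16 libraries it was -0.40 ± 0.08, again not called (limma adjusted p = 0.14), with no overlap, as for 4.53% of tested genes in that direction. With GW3965 the libraries had 46.9, 52.1, 47.5, 48.0 and 53.9 FPKM, a difference of 0.18 ± 0.10 from Vehicle (interval -0.027 to 0.39, limma adjusted p = 0.20) and of 0.024 ± 0.08 without the 4 libraries. Every GW3965 library was thus higher than every 25HC and 25HC3S library, at unequal doses. The share of all genes that lie apart in this way was not computed.

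The sterol and its sulfate were given at the same dose and time, so they form the only pair of compounds that was compared. For Igfbp5 the log2 difference, 25HC3S minus 25HC, was -0.19 ± 0.10 with an interval from -0.40 to 0.019 (limma adjusted p = 0.78). The 16 libraries gave -0.22 ± 0.07 (limma adjusted p = 0.052). The differences of Igf1 (0.058, interval -0.41 to 0.53), Igfbp2 (-0.61, interval -1.76 to 0.53), Igfbp3 (0.11, interval -0.19 to 0.40), Igfbp4 (-0.12, interval -0.33 to 0.094) and Igfbp7 (-0.36, interval -1.34 to 0.63) were not called. Without the 4 libraries these 5 were -0.067, -0.11, 0.094, -0.048 and 0.0027, again not called. A difference between these compounds in Igfbp5 was not shown, nor was equality, since the interval reaches -0.40. Of the 10 macrophage markers, Mrc1 averaged 6.40 FPKM in 25HC3S and 25.2 in Vehicle with all libraries. Lyz2 (323 and 315 FPKM) and Tyrobp (26.49 and 22.35 FPKM) averaged higher in 25HC3S, and the other markers lower. With all libraries the sums of these groups overlapped, at 355 to 708 and 411 to 1023 FPKM. Without the 4 libraries the summed level of the 10 markers was 579 to 708 FPKM in 25HC3S and 856 to 1023 in Vehicle. It was 709 to 1008 in 25HC and 901 to 1044 in GW3965. In 25HC these sums overlapped those of the Vehicle libraries left. None of the 10 markers was at 0 in any library, and their part in the result was not tested.

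Igfbp6, which prefers IGF-2 as its ligand, did not overlap between the sterol groups. It measured 46.2, 88.2, 97.4, 95.8 and 88.9 FPKM in 25HC3S and 102, 99.3, 116, 111 and 107 FPKM in 25HC. Every 25HC3S library lay below every 25HC library, as for 4.02% of all tested genes. Replicate 1 of 25HC3S, at 46.2 FPKM, is one of the 4 libraries, and with it the spread was wide: the log2 difference was -0.41 ± 0.33 (interval -1.09 to 0.28, limma adjusted p = 0.83). Without the 4 libraries it was -0.21 ± 0.05 (interval -0.31 to -0.10; limma adjusted p = 0.0155), where 4.82% of tested genes were called lower and 5.7% lay apart in that direction. In Vehicle Igfbp6 had 113, 116, 27.4, 34.5 and 108 FPKM. Against that group 25HC3S was 0.26 ± 0.33 higher with all libraries (limma adjusted p = 0.67) and the sign turned to -0.26 ± 0.06 without the 4 (limma adjusted p = 0.033; 2.72% of genes called lower). GW3965 libraries had 101, 99.6, 107, 110 and 97.7 FPKM. The differences of 25HC and GW3965 from Vehicle were 0.66 ± 0.33 and 0.61 ± 0.33 with all libraries and turned to -0.046 ± 0.06 and -0.10 ± 0.06 without the 4, none of them called. The summed level of the 5 adipocyte markers was 26.3 to 33.0 FPKM in 25HC3S without replicate 1. It was 51.7 to 54.6 in Vehicle replicates 1 and 5, 36.1 to 58.2 in 25HC and 32.9 to 47.8 in GW3965. In GW3965 these sums also lay below those of Vehicle replicates 1 and 5. Igfbp6 there differed from Vehicle by -0.10 ± 0.06 without the 4 libraries, not called. Lep was at 0 throughout and the other 4 adipocyte markers in no library. Macrophage marker sums were 579 to 708 FPKM in 25HC3S without replicate 1 and 709 to 1008 in 25HC. The part of these cells in the result was not tested.

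**Figure D2:**
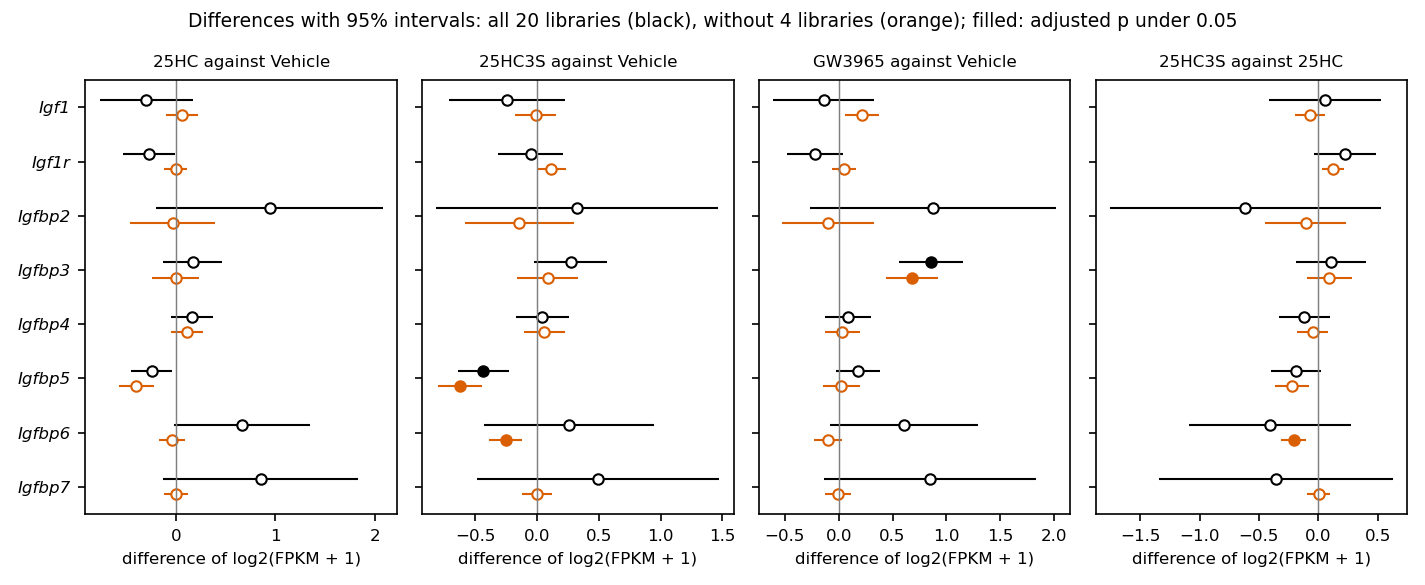
Difference of log2(FPKM + 1) between the groups named above each panel (horizontal axis) for the 8 tested members (vertical axis), with 95% intervals, from all 20 libraries (black) and without the 4 libraries that stand apart (orange); filled points have an adjusted p under 0.05. Igfbp3 is filled in both fits for GW3965 against Vehicle and Igfbp5 in both for 25HC3S against Vehicle, while the intervals of Igfbp2, Igfbp6 and Igfbp7 are wide in black and narrow in orange.

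Igfbp7, Igfbp2 and Igfbp4, the most abundant members with Igfbp6, were not called in any of the 4 comparisons. Igfbp7 had 320, 387, 71.2, 45.5 and 266 FPKM in Vehicle and 83.2, 285, 286, 309 and 286 FPKM in 25HC3S. It spanned 279 to 303 FPKM in 25HC and 283 to 296 in GW3965. The low values of 45.5 to 83.2 FPKM belong to 3 of the 4 libraries, and the remaining 16 ran from 266 to 320 FPKM. Against Vehicle the log2 differences were 0.85 ± 0.47 for 25HC, 0.49 ± 0.47 for 25HC3S and 0.85 ± 0.47 for GW3965, with limma adjusted p of 0.21, 0.57 and 0.21. With only the 16 libraries they were -0.0037 ± 0.06, -0.00099 ± 0.06 and -0.0041 ± 0.06. The interval for GW3965 was then -0.12 to 0.12.

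Igfbp2, a binding protein found in serum and in fetal tissues, showed the same low libraries. Its values were 128, 133, 19.8, 21.3 and 115 FPKM in Vehicle, 102, 92.2, 123, 144 and 139 in 25HC, 18.0, 80.4, 117, 128 and 121 in 25HC3S, and 90.3, 95, 132, 124 and 133 in GW3965. Differences from Vehicle were 0.94 ± 0.55, 0.32 ± 0.55 and 0.88 ± 0.55 for 25HC, 25HC3S and GW3965, none called by limma (adjusted p 0.22, 0.75 and 0.25). With the 4 libraries left out all 3 turned negative, at -0.038 ± 0.20, -0.14 ± 0.21 and -0.099 ± 0.20, and were not called. Igfbp4, an inhibitor of IGF action that pappalysin cleaves, varied least among these genes over all 20 libraries, with an SD of 10.5% of its mean. In the 16 libraries Igfbp7 varied less, with an SD of 4.36% of its mean against 6.73% for Igfbp4. Igfbp4 ran from 212 to 322 FPKM in Vehicle, 269 to 322 in 25HC, 225 to 312 in 25HC3S and 260 to 300 in GW3965. Its groups overlapped in all comparisons. Its differences from Vehicle were 0.16 ± 0.10, 0.041 ± 0.10 and 0.086 ± 0.10 for 25HC, 25HC3S and GW3965, and 0.11 ± 0.08, 0.059 ± 0.08 and 0.034 ± 0.08 without the 4 libraries.

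Of the ligands only Igf1 was high enough to test. Vehicle libraries had 6.02, 4.60, 13.5, 15.6 and 6.58 FPKM, and 25HC3S libraries 10.2, 6.59, 6.53, 5.83 and 6.03 FPKM. The 25HC libraries lay between 6.26 and 7.68 and the GW3965 libraries between 6.89 and 8.23 FPKM. The 3 highest values are again libraries that stand apart. Log2 differences from Vehicle were -0.30 ± 0.22, -0.25 ± 0.22 and -0.14 ± 0.22 for 25HC, 25HC3S and GW3965 (limma adjusted p 0.33, 0.55 and 0.67). When the 4 libraries were left out, those of 25HC and 25HC3S were 0.055 ± 0.07 and -0.012 ± 0.08, not called, and GW3965 was 0.22 ± 0.07 higher than Vehicle, with no overlap between groups (13.2% of genes in that direction) and no call (limma adjusted p = 0.097). Igf1os, on the opposite strand, reached at most 0.15 FPKM.

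Igf1r was between 6.66 and 11.4 FPKM in Vehicle, 6.37 and 7.13 in 25HC, 6.89 and 11.0 in 25HC3S and 7.01 and 7.21 in GW3965. It was not called in any comparison, with log2 differences from Vehicle of -0.28 ± 0.12, -0.054 ± 0.12 and -0.22 ± 0.12 for 25HC, 25HC3S and GW3965. Without the 4 libraries these were -0.0080 ± 0.05, 0.11 ± 0.05 and 0.052 ± 0.05, so that the first all but vanished and the others changed sign. The 25HC3S minus 25HC difference was 0.22 ± 0.12 (interval -0.035 to 0.48), and 0.12 ± 0.04 without the 4 libraries (limma adjusted p = 0.095). For Igf2 the libraries held 4 to 41 fragments each, or 0.0468 to 0.448 FPKM. Group means were 0.301 ± 0.162 in Vehicle, 0.243 ± 0.0317 in 25HC, 0.200 ± 0.0573 in 25HC3S and 0.198 ± 0.0711 FPKM in GW3965 (SD, n = 5), and the groups overlapped in all 4 comparisons. No difference was tested at this depth.

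As a group the members had a median log2 difference of 0.16, 0.15 and 0.39 from Vehicle for 25HC, 25HC3S and GW3965, beside 0.025, 0.021 and 0.024 over all tested genes. In the 16 libraries the medians of the members were -0.0082, -0.0063 and 0.029, beside 0.0027, 0.014 and 0.0073. The 3 comparisons share the Vehicle libraries.

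In 3 of the 4 libraries that stand apart, the shortest members were low and the longest were high. In Vehicle replicates 3 and 4 and 25HC3S replicate 1, the log2 difference of Igfbp2 from the mean of the libraries of its group that do not stand apart was -2.56, -2.46 and -2.54. Of all tested genes, 0.251%, 0.251% and 0.047% were lower. Igfbp7 stood at -2.02, -2.66 and -1.80 and Igfbp6 at -1.97, -1.65 and -0.98 in the same libraries. Igf1 stood at 0.99, 1.19 and 0.62, and Igf1r at 0.67, 0.54 and 0.51. Igfbp5 lay nearer to its group, at -0.16, -0.049 and 0.17.

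The 3 members that were low are the shortest, with gene lengths in the table of 1112 (Igfbp6), 1209 (Igfbp7) and 1847 (Igfbp2) bases, and the 2 that were high are the longest, with 9904 (Igf1) and 16791 (Igf1r) bases. Over all tested genes in 5 classes of length, the median difference ran from -0.47 in the shortest to 0.36 in the longest class in Vehicle replicate 3, from -0.40 to 0.34 in Vehicle replicate 4 and from -0.25 to 0.28 in 25HC3S replicate 1. Spearman's rho across these 12752 genes was 0.38, 0.36 and 0.38, a description since genes of a library are not independent. The short members thus lay well beyond the median of their class. Vehicle replicate 2 showed little of this, with medians of -0.10 and 0.053 at the ends, and there Igfbp7 was 0.41 higher and Igfbp5 stood at -0.57. What sets the 4 libraries apart was not tested.

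**Figure D3:**
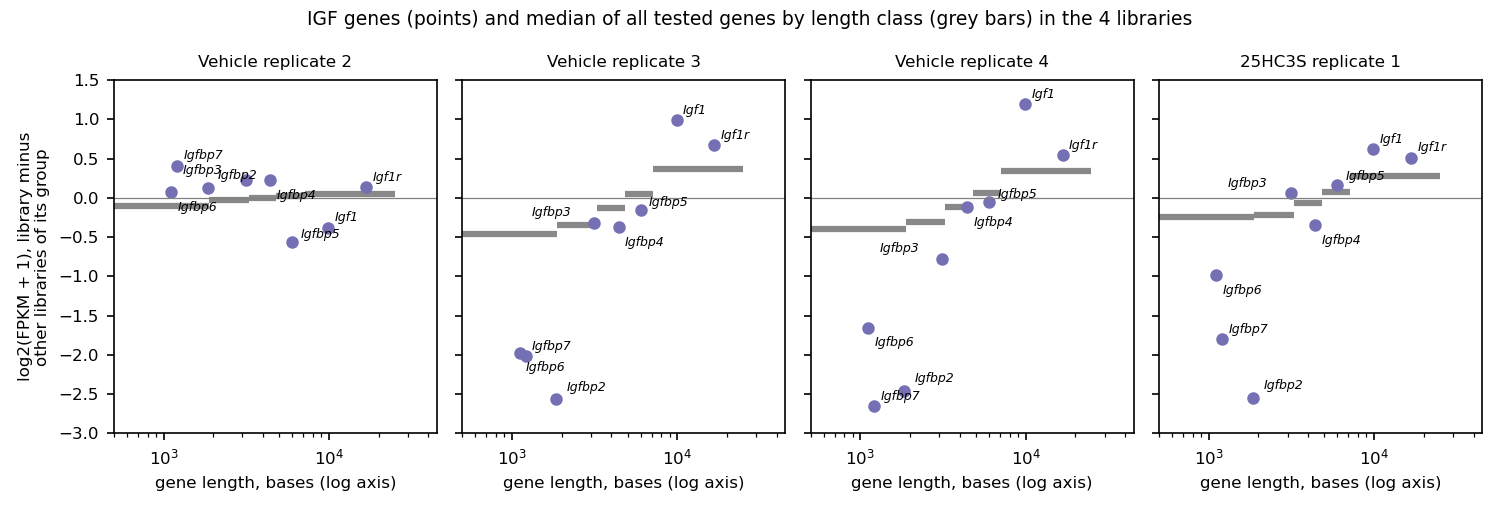
Difference of log2(FPKM + 1) between each of the 4 libraries and the mean of the libraries of its group that do not stand apart (vertical axis) against gene length in bases (horizontal log axis); points are the 8 tested members, and grey bars are medians of all tested genes in 5 length classes, drawn from 500 to 25000 bases. In Vehicle replicates 3 and 4 and 25HC3S replicate 1 the short genes Igfbp2, Igfbp6 and Igfbp7 lie between -0.98 and -2.66, below their class, and Igf1 and Igf1r lie above theirs.

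The rest of the pathway was followed in 43 further genes, of which 38 passed the filter. Insrr, Igfbp1, Igfbpl1, Igf2bp1 and Igf2bp3 did not. With all libraries 2 of the 38 were called higher and 2 lower in GW3965 against Vehicle, beside 3.49% and 2.97% of all tested genes. None was called in the other 3 comparisons. There the shares of all tested genes were 0.0392% (25HC against Vehicle), 1.61% (25HC3S against Vehicle) and 0.816% (25HC3S against 25HC). Akt2, a kinase downstream of the receptor, rose with GW3965: it had 21.9, 18.1, 19.7, 20.5 and 18.9 FPKM in Vehicle and 25.2, 25.0, 25.7, 24.0 and 24.7 FPKM in GW3965. The groups did not overlap, as for 3.79% of tested genes in that direction. The log2 difference was 0.32 ± 0.06 (limma adjusted p = 0.0021), or 0.28 ± 0.05 without the 4 libraries (limma adjusted p = 0.0042).

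Stc2, an inhibitor of pappalysins, rose by 0.55 ± 0.16 on the log2 scale with GW3965 (6.15 against 4.05 FPKM, limma adjusted p = 0.045). Socs2, a feedback inhibitor of growth hormone signalling, stood at -0.36 ± 0.10 (1.95 against 2.81 FPKM, limma adjusted p = 0.033). Grb14, an adaptor that inhibits insulin receptor signalling, stood at -0.35 ± 0.09 (6.62 against 8.80 FPKM, limma adjusted p = 0.029). Of all tested genes 2.97% were called lower in this comparison. None of these 3 calls was kept without the 4 libraries. In that fit Htra1, a secreted protease, was 0.20 ± 0.04 higher and Stc1, a relative of Stc2, stood at -0.50 ± 0.11, with limma adjusted p of 0.0073 and 0.0085 (3.87% of genes called lower). Pik3cb, a catalytic subunit of PI3 kinase, was 0.30 ± 0.07 higher (limma adjusted p = 0.016). In that fit 4.07% of genes were called higher.

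Pappa encodes the protease that cuts Igfbp4. Its level was 3.92 to 12.7 FPKM over all libraries but 3.92 to 5.80 in the 16, and it was not called with all libraries. Without the 4 libraries it averaged 4.26 ± 0.245 FPKM in 25HC3S (n = 4) and 5.42 ± 0.359 in 25HC (n = 5), a log2 difference of -0.29 ± 0.06 (limma adjusted p = 0.0066; 4.82% of genes called lower). In the same fit and comparison Grb2 (-0.14 ± 0.04), an adaptor, and Pik3r1 (-0.15 ± 0.04), a regulatory subunit of PI3 kinase, were called lower. Mtor (0.14 ± 0.03) and Sos1 (0.15 ± 0.04) were called higher, as were 2.56% of genes.

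Igf2r, Insr, Irs1 and Irs2 were not called in any comparison, with or without the 4 libraries. Igf2r, which clears IGF-2 into lysosomes, had 32.4 ± 1.24 FPKM in the 16 libraries. Insr, the insulin receptor, had 3.98 ± 0.231 FPKM, Irs1 12.5 ± 0.708 and Irs2 3.91 ± 0.397 FPKM. Over the 38 genes the median log2 difference from Vehicle was -0.13, -0.053 and -0.11 for 25HC, 25HC3S and GW3965, and 0.029, 0.033 and 0.020 without the 4 libraries.

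**Figure D4:**
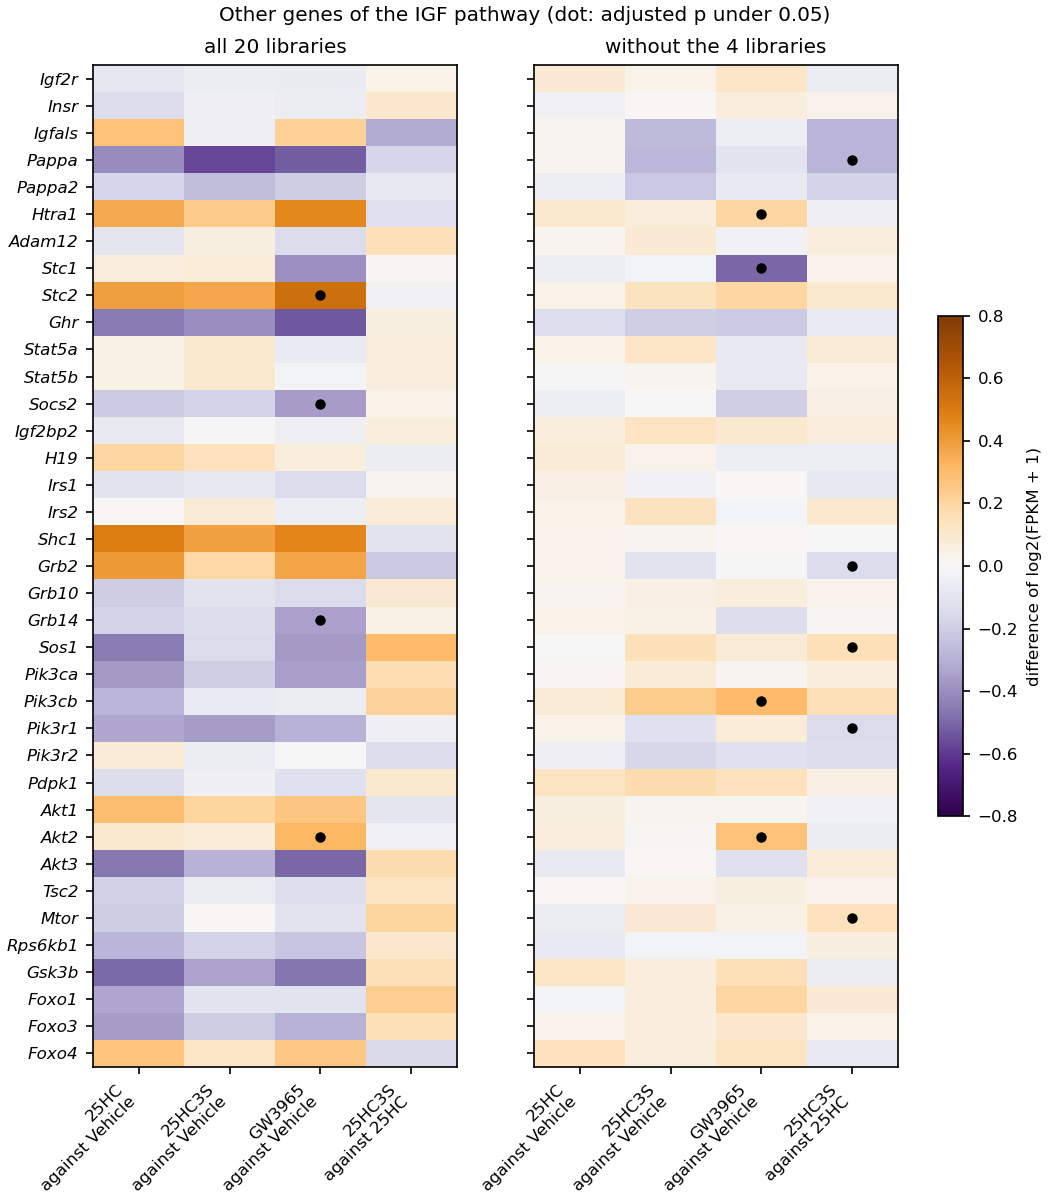
Difference of log2(FPKM + 1) (colour, from -0.8 to 0.8) for 37 of the 38 tested genes of the wider pathway (rows) in the 4 comparisons (columns), from all 20 libraries (left) and without the 4 that stand apart (right); a dot marks an adjusted p under 0.05. The left panel has 4 dots, all in GW3965 against Vehicle, and the right panel has 9; the first 3 columns of each panel share the Vehicle libraries.

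For each tested member the 3 genes most like it, of which 2 are given for Igfbp5, were taken by Pearson correlation of log2(FPKM + 1) over the 20 libraries, which share the 4 libraries that stand apart and their gene-length pattern. For Igf1 these were Zdhhc9, Slc38a9 and Rfk, for Igf1r Slc4a7, Atrn and Zfyve9, for Igfbp2 Zfas1, Dlk1 and Urm1, and for Igfbp3 Ccdc9b, Ppp2r5b and Cth. For Igfbp4 they were Fxyd6, Imp3 and Dpm3, for Igfbp5 Cd180 and Actg2, for Igfbp6 Rpl8, Cltb and Cbr1, and for Igfbp7 2310011J03Rik, Uqcc3 and Irf2bp2. The correlations ran from 0.86 to 0.99. In the 16 libraries the 3 nearest genes to Igfbp3 were Tbl1x (0.957), Angptl4 (0.951) and Tlcd1 (0.945), and those nearest to Igfbp5 were Nfxl1, Flna and Csrp1 (0.91 to 0.93). Only Fxyd6, beside Igfbp4, was among the 3 nearest in both sets.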

How the data were processed

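RNA of 20 libraries was measured by sequencing, and groups were taken from the treatment in the labels, with the replicate numbers of the titles. The authors deposited 1 table of FPKM with gene names, coordinates and lengths. RNA had been extracted with Trizol, per the labels' protocols. The tools CASAVA 1.8 and HISAT2 2.0.5 are listed in the submitters' processing notes. For the counting program, strand setting and build the entry is: not given in the sources used here. Identifiers matched GENCODE: 99.77% were in release M21 (GRCm38), 98.26% of them with equal coordinates. FPKM times gene length gave whole fragments, within 0.02 for 100% of values under 500 fragments, and so the depth, 14653777 to 19365220 fragments per library; fragments may be PCR copies, so depth covers counting error only.

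FPKM are not counts, so log2(FPKM + 1) was fitted with limma 3.58.1 (R 4.3.3), 1 mean per group over all 20 libraries, empirical Bayes with a trend, two-sided, and Benjamini-Hochberg adjustment over the 12752 genes that reached 1 FPKM in 5 or more libraries. Differences are on that scale, which understates changes of low genes. The fit was tested on simulated data with known changes, drawn without libraries that stand apart, so that test does not cover their effect. Alternatives were a pseudocount of 0.1, no filter, quantile or median scaling, library weights, a fit of only the groups compared, a replicate block and leaving out each library. Leaving out the 4 libraries with fewer than 1500 genes at exactly 1 fragment was chosen after seeing the data. In that fit the filter was applied again to the 16 libraries, and 12496 genes were tested and adjusted over. The members, the pathway and marker lists and the tests were chosen with earlier results of these data known. All 9 members are named, with pathway genes called in a comparison, Igf2r, Insr, Pappa, Irs1 and Irs2, and the 3 genes most correlated with each tested member; 1 gene of the pathway list and 1 correlated gene are not reported here. Genes nearest to Igfbp3 and Igfbp5 in 16 libraries were named after their values were seen. Sequences of 13 RefSeq promoter windows were searched for 6 motifs.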

Additional observations from a re-analysis of the deposited data

Results flagged for a closer look

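Each of the 9 members was checked in each of the 4 groups for a library whose gap to its nearest neighbour was large for the range of the group (Dixon's test at the 95% level), and 5 of 36 sets of 5 libraries had one; chance flags about 1 in 20. In 25HC3S replicate 1, which is one of the 4 libraries that stand apart, Igf1 was 10.2 FPKM where the others had 5.83 to 6.59, and Igf1r was 11.0 where the others had 6.89 to 7.96. In the same library Igfbp6 was 46.2 FPKM where the others had 88.2 to 97.4, and Igfbp7 was 83.2 where the others had 285 to 309. Igf1 was 7.68 FPKM in 25HC replicate 5 where the others had 6.26 to 6.5, and this library does not stand apart by its low-count genes.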

How the results depend on the processing

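The calls of Igfbp3 in GW3965 against Vehicle and their direction held in every alternative run. That of Igfbp5 in 25HC3S against Vehicle was lost in the fit of only the 2 groups (-0.44, adjusted p 0.484; 0 members called) and held in the other planned fits of all libraries. Library weights added Igfbp5 in 25HC against Vehicle (-0.38, adjusted p 0.0425; 1 member called) and in 25HC3S against 25HC (-0.24, adjusted p 0.0215; 1 called). Without the 4 libraries, 2 members were called lower in 25HC3S against Vehicle and 1 in 25HC3S against 25HC (Igfbp6, -0.21). Of tested genes 2.72% and 4.82% were called lower there. Members without overlap were then 1 (lower), 2 (lower) and 3 (higher) for 25HC, 25HC3S and GW3965 against Vehicle, which then holds 2 libraries. Of tested genes 4.53%, 12.6% and 13.2% lay apart in these directions. Quantile normalisation left 0 members without overlap in 25HC3S against 25HC.

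Signs that turned, all of differences not called with all libraries, were the following. Without the 4 libraries, 25HC against Vehicle gave 0.055 (Igf1), -0.038 (Igfbp2), -0.0085 (Igfbp3), -0.046 (Igfbp6) and -0.0037 (Igfbp7). There 25HC3S against Vehicle gave 0.11 (Igf1r), -0.14 (Igfbp2), -0.26 (Igfbp6, called) and -0.00099 (Igfbp7); GW3965 against Vehicle gave 0.22 (Igf1), 0.052 (Igf1r), -0.099 (Igfbp2), -0.10 (Igfbp6) and -0.0041 (Igfbp7); and 25HC3S against 25HC gave -0.067 (Igf1) and 0.0027 (Igfbp7). With library weights, Igf1 was 0.042 in 25HC against Vehicle, 0.20 in GW3965 against Vehicle and -0.061 in 25HC3S against 25HC. Weights also gave 0.099 (Igf1r), -0.12 (Igfbp2) and -0.22 (Igfbp6) in 25HC3S against Vehicle, and 0.029 (Igf1r), -0.054 (Igfbp2) and -0.056 (Igfbp6) in GW3965 against Vehicle.

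Counts over all genes, 5, 205, 824 and 104 in 25HC, 25HC3S and GW3965 against Vehicle and 25HC3S against 25HC, moved to 1, 21, 153 and 202 in fits of 2 groups. Library weights gave 16, 769 and 1053 in 25HC and 25HC3S against Vehicle and 25HC3S against 25HC, and leaving out the 4 libraries 508 and 922 in the last pair. Leaving out 1 library gave 1 to 2666, 95 to 622, 444 to 3251 and 60 to 146 genes, 0 to 1 members called in 25HC3S against Vehicle, and 0 to 1, 0 to 1 and 1 to 2 members without overlap in 25HC and 25HC3S against Vehicle and 25HC3S against 25HC. Signs turned within -0.33 to 0.068 (Igf1, GW3965 against Vehicle), -0.067 to 0.11 (Igf1) and -0.47 to 0.0027 (Igfbp7) in 25HC3S against 25HC, and in 25HC3S against Vehicle within -0.16 to 0.047 (Igf1r), -0.071 to 0.83 (Igfbp2), -0.039 to 0.11 (Igfbp4) and -0.057 to 0.45 (Igfbp6).

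Samples with the same replicate number did not deviate together (correlations -0.702 to 0.27, 4 of 20 pairs above 0.1), and in 25HC with GW3965, where no library stands apart, the same-numbered correlations were -0.0034 to 0.0915. In the main fit the samples are treated as sharing only a number. Most of these pairs include groups with libraries that stand apart, so the correlations cannot decide whether the numbers mark a batch. In 25HC and GW3965, Igfbp2 and Igfbp4 split by replicate number, as given below. With the replicate block the same numbers of members were called, with 1 and 544 genes over all in 25HC and GW3965 against Vehicle. The causes of these shifts were not tested.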

Other observations

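In the groups where no library stands apart, Igfbp2 was lower in replicates 1 and 2 than in 3 to 5. In 25HC replicates 1 and 2 had 102 and 92.2 FPKM and replicates 3 to 5 had 123 to 144; in GW3965 replicates 1 and 2 had 90.3 and 95 FPKM and replicates 3 to 5 had 124 to 133. Igfbp4 showed the same split, with 276 and 269 against 307 to 322 FPKM in 25HC and 270 and 260 against 290 to 300 in GW3965. Of the other groups' libraries that do not stand apart, 25HC3S replicate 2 went with the split for Igfbp2 (80.4 against 117 to 128 FPKM), and Vehicle replicate 1 went against it, at 128 FPKM for Igfbp2 and 280 for Igfbp4 where replicate 5 had 115 and 270. This split was noticed after the values were seen, and whether the numbers mark a batch is not given in the sources used here. Over the 16 libraries the Pearson correlation of Igfbp2 with Igfbp4 was 0.81, a description over libraries of 4 treatments.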
